A study of Mus musculus with 4 samples.

Results

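Tanycytes are the elongated glial cells that line the floor and lower walls of the third ventricle, next to the median eminence and the arcuate nucleus. They contact the ventricular fluid at one end and send a long process into the brain tissue at the other, and are known for barrier and transport functions, for handling thyroid hormone and for glucose sensing. Their subtypes are arranged along the ventricle, from tanycytes of the floor to those of the lateral wall. The cells described here are the tanycytes with high Scn7a and Col25a1. Scn7a encodes a sodium channel of glia known for sensing extracellular sodium in brain regions that border the ventricle, and Col25a1 encodes a transmembrane collagen.

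The members were chosen by their own transcript counts. A well had to hold at least 1000 counts outside spike-ins and mitochondrial genes. Per 10000 counts, its sum of 5 neuron genes (Snap25, Syt1, Stmn2, Tubb3, Rbfox3) had to lie under 12. Its sum of 6 tanycyte genes (Rax, Crym, Frzb, Col23a1, Scn7a, Col25a1) had to reach 10 and exceed both an astrocyte sum (Agt, Itih3, Ntsr2, Slc6a11, Gpr37l1) and an endothelial sum (Cldn5, Flt1, Pecam1, Kdr). Finally, Scn7a plus Col25a1 had to exceed Crym plus Frzb plus Slit2. The rule found 107 wells of 1298 kept, out of 1536 deposited: 26, 33 and 41 on fed plates 1, 2 and 3, and 7 among the fasted wells. The tanycytes on the other side of the last condition, called Crym and Frzb high tanycytes here, numbered 141 (25, 47, 31 and 38), and 5 wells had equal sums.

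The cells were sorted from the hypothalamus of C57BL/6 mice carrying Lepr-cre and Rosa-LSL-tdTomato, a reporter that marks a cell once Cre has been made from the Lepr locus and stays on afterwards. All groups carried both alleles, and feeding is the difference the labels give. A total of 3 plates of 384 wells came from fed animals and 1 plate from animals without food for 24 h. The labels do not state the number of animals behind a plate, nor age, sex or hour of sampling. The p-values therefore reflect only plate-to-plate spread, and with 1 fasted plate the plate itself and fasting cannot be told apart. Wells are cells, not replicates, and conditions were compared over plates. The column numbers 1 to 384 are shared by all 4 plates, which are separate libraries.

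The plates held 4440490 to 5546516 transcripts each. The members held 183732, 235344 and 369454 on fed plates 1, 2 and 3, and the 7 fasted members 53298, with medians per well of 7080, 6079, 8725 and 7631. Their median mitochondrial share was 8.97, 7.67 and 11.6% for fed and 14.5% for fasted members. All 7 fasted members had Xist and no Y-linked transcript, which marks cells of female mice, against 1, 9 and 4 members on the fed plates, where 18, 18 and 32 members had Y-linked transcripts and no Xist. The sex of the cells therefore moved with feeding, and its part in the comparison was not tested beyond the wells with Xist alone described later.

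Tanycyte genes outside the rule were read first. Gpr50, an orphan receptor known from tanycytes, stood at 866, 540, 747 and 526 CPM (transcripts scaled to a total of 1e6 over the summed wells of a plate) in members on fed plates 1, 2, 3 and the fasted plate, against 6.6 to 22.1 CPM in the wells of neither tanycyte class. Lhx2, a homeobox factor of tanycytes, stood at 441, 446, 403 and 469 CPM against 5.5 to 19.7 CPM. Vim, an intermediate filament of many glia, did not separate them on fed plate 1 (659 against 672 CPM). Rax and Col23a1 are part of the rule, so their presence was built in and is given as a description. Rax, the homeobox factor that marks tanycytes, was found in 85 of 107 members, and Col23a1, a second transmembrane collagen, in 106. After thinning every well to 1000 transcripts, Rax was seen in 32.7% of members and 21.3% of Crym and Frzb high tanycytes, against 0.5% of the remaining wells, and Col23a1 in 72.9, 81.6 and 5.1%. Without thinning the shares were 79.4, 69.5 and 4.2% for Rax and 99.1, 100 and 26.5% for Col23a1. Lepr itself was nearly absent: 7 transcripts in 4 of the 107 members. At 0, 17.0, 5.41 and 18.8 CPM, it stayed under its mean of 40.7 CPM in the remaining wells of the fed plates.

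A few wells stood apart. In 4 members (2 on fed plate 1 and 1 each on fed plates 2 and 3) the summed markers of fibroblast-like cells of vessels and meninges (Dcn, Col1a1, Col1a2, Lum, Pdgfra) exceeded the tanycyte sum, at 48.0 to 203 against 10.3 to 24.0 per 10000, and none had Rax. Among the Crym and Frzb high tanycytes 5 wells did so, 2 on fed plate 3 and 3 on the fasted plate. In 5 further members, 4 on fed plate 2 and 1 on the fasted plate, Ccdc7a alone exceeded the tanycyte sum, as it did in 8 Crym and Frzb high wells. In the other 98 members the fibroblast-like sum reached at most 13.0 per 10000 and Rax was present in 84. Ccdc7a still reached 50.1 per 10000 there, against 41.8 to 571 in the 5 members set apart by it. The comparisons were therefore also run without all these wells, a choice made after the data were seen.

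Beside the wells that stood apart, marker lists of other cell types were summed over the members of each plate, in the order fed 1, 2, 3 and fasted. The 5 fibroblast-like genes summed to 577, 812, 135 and 188 CPM and 5 pericyte genes to 485, 208, 75.8 and 37.5 CPM, both highest among fed members. The 5 oligodendrocyte genes summed to 387, 217, 94.8 and 375 CPM. Of 5 neuron genes the summed level was 81.7 to 238 CPM, of 7 astrocyte genes 174 to 327, of 6 ependymal genes 207 to 300, of 4 endothelial genes 56.3 to 120 and of 5 microglia genes 8.12 to 55.3. For comparison, the 12 tanycyte genes summed to between 10660 and 16950 CPM. The neuron and endothelial genes were limited by the rule, as were Agt, Itih3, Ntsr2, Slc6a11 and Gpr37l1 of the astrocyte list. Many genes of the tanycyte list also belong to the rule. The gap between these sums was therefore partly built in and is given as a description. The pars tuberalis list differed by plate. Its 5 genes summed to 218, 46.8 and 97.5 CPM in the fed members and 1708 CPM in the fasted members, with Tshb and Pitx1 at 0 in all members and Chga the main part of the fasted sum. The Crym and Frzb high tanycytes showed the same plate difference, at 313, 29.7 and 89.8 CPM fed and 1096 CPM fasted.

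The genes of the last condition describe how far the members lie from their neighbours, and carry no test because they chose the members. Col25a1 (chr3:130131501-130599877, plus strand, GRCm38) stood at 4557, 3672 and 5485 CPM in fed members and 7809 CPM in fasted members, and at 1549, 1214, 943 and 1459 CPM in the Crym and Frzb high tanycytes of the same plates. Scn7a (chr2:66673425-66784914, minus strand) stood at 1873, 1411 and 1679 CPM fed and 957 CPM fasted, and at 191, 39.6, 8.98 and 182 CPM in the other class. Of 141 Crym and Frzb high wells, 20 had an Scn7a transcript and 103 a Col25a1 transcript. On the other side, Crym, which encodes a cytosolic protein that binds thyroid hormone, stood at 131, 204 and 249 CPM in fed members and 338 CPM in fasted members, against 1462, 927, 827 and 344 CPM. The fasted value of the members came from 3 of 7 wells. It was 0 against 346 CPM where the larger sum had to be at least 2 times the smaller, and 307.5 against 483 CPM with Slit2 left out of the rule.

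**Figure D1:**
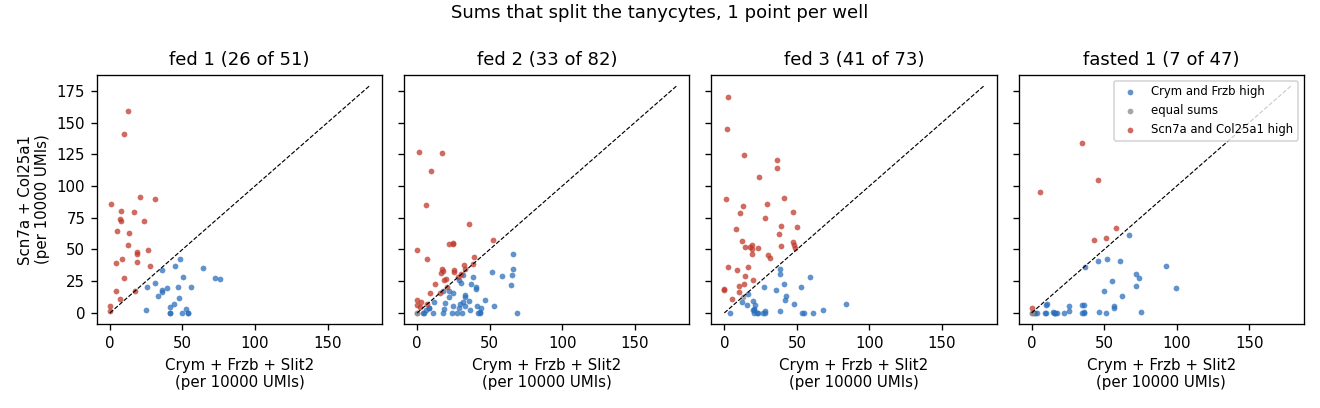
Each point is a tanycyte well, with Crym plus Frzb plus Slit2 on the horizontal and Scn7a plus Col25a1 on the vertical axis, both per 10000 transcripts, and 1 panel per plate. Members lie above the dashed line of equal sums, 26 of 51, 33 of 82, 41 of 73 and 7 of 47 tanycyte wells, and many wells of fed plate 2 lie close to the line.

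The line between the classes runs through a continuous range. Of 253 tanycyte wells, 76 lay within 10 transcripts per 10000 of it, 33 of them members. Just inside, the 5 members with the smallest excess had sums of 7.08 to 38.9 per 10000 on both sides of the comparison and differed by at most 0.0076. In 7 members the whole transcripts on both sides were equal in number, and they passed only through the collision correction in the deposited values. Just outside, the 5 nearest wells fell short by up to 1.76 per 10000. The tanycyte sum of the members ran from 10.3 to 196 per 10000, with a median of 81.8.

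Most members carried both defining transcripts. Scn7a and Col25a1 were found together in 64 members, Col25a1 alone in 39 and Scn7a alone in 4, and Scn7a outnumbered Col25a1 in 12. On the fasted plate a single well held all Scn7a transcripts, at 34.0 per 10000, and the other 6 fasted members had none. Over all fasted members Col25a1 ran from 3.8 to 134 per 10000, with a median of 61.0, against medians of 42.3, 28.0 and 46.8 on the fed plates. This order depended on the rule, which also weighs Slit2. With Slit2 left out of the rule, Col25a1 stood at 4296, 3175 and 4926 CPM in fed members and 3093 CPM in fasted members.

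The other given markers were shared with the neighbouring class to different degrees. Ppp1r1b encodes DARPP-32, a phosphatase inhibitor regulated by cAMP signalling. It stood at 463, 323 and 466 CPM in fed members and 300.3 CPM in fasted members, above the 279, 191, 144 and 111 CPM of the Crym and Frzb high tanycytes on each plate. Mest, an imprinted gene of the alpha/beta hydrolase family, stood at 479, 565 and 504 CPM fed and 244 CPM fasted, again above the other class on each plate (174, 201, 148 and 152 CPM). Col23a1 did not separate the classes. Its levels were 1661, 1704, 2115 and 2891 CPM in members and 1741, 2018, 1923 and 2281 CPM in the other class, with ratios on both sides of 1. All 3 markers were found together in 56 members, and every member had at least 1 of them.

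Outside the genes of the rule, 4903 genes had at least 100 transcripts over all tanycyte wells. Of these, 522 (10.6%) were higher in members than in Crym and Frzb high tanycytes on all 4 plates and 536 (10.9%) were lower, and the median gene had a log2 ratio of -0.0034. These ratios are a description without a test, because the wells were split on their own counts. The 20 genes highest and the 20 lowest on the plate nearest to 0 are those named next. All 40 kept their direction on every plate without the wells that stood apart. With Slit2 left out of the rule, a change described further on, 19 of the 20 higher and 16 of the 20 lower genes did so. The exceptions, on the fasted plate, were Errfi1 (-1.28), Vcan (0.15), Foxj1 (0.31), Ezr (0.0072) and Letm2 (0.39).

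**Figure D2:**
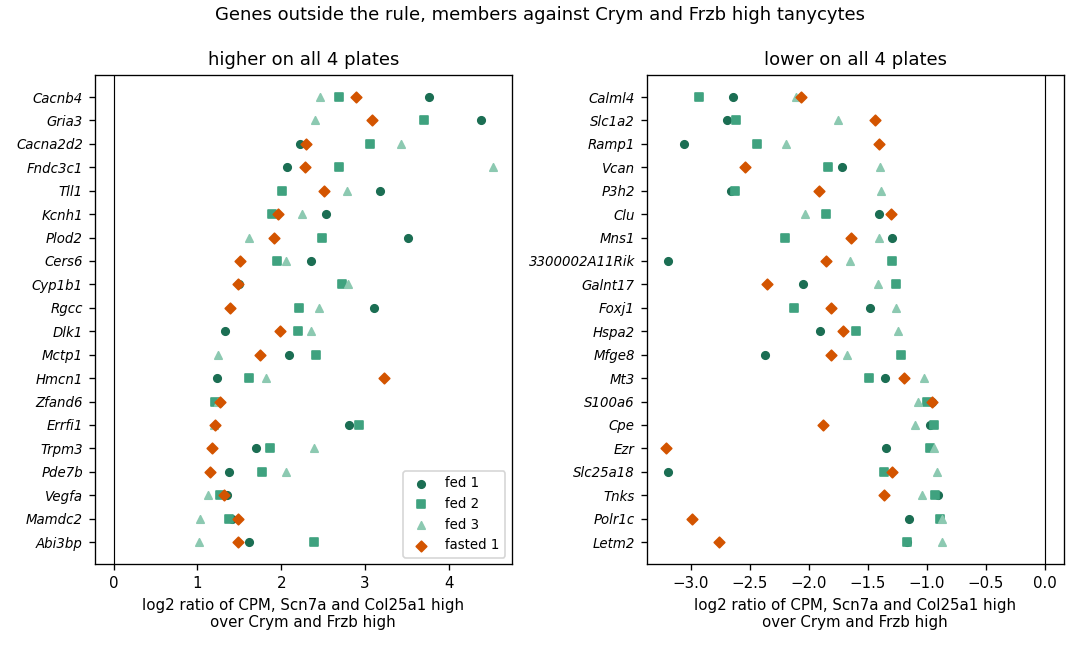
Log2 ratios of CPM, members over Crym and Frzb high tanycytes, with 1 point per plate, for the 20 highest and 20 lowest genes outside the rule. The zero line is no difference, and by the way the genes were chosen all points of the 20 highest are positive and all points of the 20 lowest negative.

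Some of the higher genes encode subunits of ion channels or glutamate receptors (Cacnb4, Cacna2d2, Gria3, Kcnh1, Trpm3), a grouping made after their values were seen. The share of such genes among all genes compared was not counted. Cacnb4, an auxiliary beta subunit of voltage-gated calcium channels, stood at 272, 221 and 208 CPM in fed members and 563 CPM in fasted members, against 17.4, 33.0, 35.9 and 75.9 CPM. Each member value lay above every value of the other class, and the log2 ratio ran from 2.46 to 3.76. Cacna2d2, an alpha2delta subunit of the same channels, had log2 ratios of 2.23 to 3.43. Gria3, an AMPA receptor subunit, stood at 180, 191, 106 and 300.3 CPM against 5.80, 13.2, 18.0 and 35.3 CPM. Its fasted value in members came from 2 of 7 wells, and its fed plate 1 value in the other class from 1 of 25. Kcnh1, a voltage-gated potassium channel, ran 1.89 to 2.54 log2 units above the other class. Trpm3, a calcium-permeable channel, stood at 1720, 1998, 2060 and 2872 CPM in members and 528, 547, 391 and 1277 CPM in the other class. With Slit2 left out of the rule, the fasted log2 ratios were 1.29 (Cacnb4), 0.36 (Cacna2d2), 0.88 (Gria3), 3.85 (Kcnh1) and 0.78 (Trpm3). In the channel list 7 genes outside the rule had enough transcripts. Of these 2 were higher on all plates, against 10.6% of all genes, Trpm3 and the kainate receptor subunit Grik3 (0.66 to 1.72), and 1 was lower, against 10.9%, the potassium channel Kcnj10 (-3.14 to -0.40). The median log2 ratio of the 7 was -0.0049, beside -0.0034 over all genes.

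Vegfa, the angiogenic growth factor, stood at 256, 225, 190 and 244 CPM in members and 98.6, 92.3, 85.3 and 100.3 CPM in the other class, a log2 range of 1.12 to 1.35. With Slit2 left out of the rule, its log2 ratio ran from 0.16 on the fasted plate to 1.76 on fed plate 1. Tll1, a metalloprotease related to procollagen C-proteinase, ran 2.02 to 3.18 log2 units higher, Plod2, a lysyl hydroxylase of collagen, 1.62 to 3.52, and Hmcn1, a large matrix protein, 1.24 to 3.23. Mamdc2 and Abi3bp, both matrix proteins, closed the 20 with log2 ratios from 1.03 and 1.02 on the nearest plate. The fixed list of matrix and adhesion genes went both ways. Of 13 that could be compared, 3 were higher on all plates (Col4a5, Cdh2, Timp3), against 10.6% of all genes, and 3 lower (Sparcl1, Vcan, Ncam1), against 10.9%. Their median log2 ratio was 0.25.

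Dlk1, a membrane protein related to Notch ligands and expressed from the paternal allele, stood at 3032, 1755 and 1879 CPM in fed members and 1014 CPM in fasted members, against 1207, 379, 364 and 258 CPM. On each plate the members were higher, but the level of the other class on fed plate 1 exceeded that of the fasted members. The neighbouring maternally expressed Meg3 was higher as well, by 0.42 to 1.20. With Mest and Sgce these made 4 of 14 imprinted genes higher on all 4 plates, against 10.6% of all genes, while Ndn and Zrsr1 were lower, against 10.9%. The rest of the 20 were Fndc3c1, Cers6 (a ceramide synthase), Cyp1b1 (a cytochrome P450 that acts on retinoids and steroids), Rgcc, Mctp1, Zfand6, Errfi1 (a feedback inhibitor of EGF receptor signalling) and Pde7b (a cAMP phosphodiesterase), at nearest ratios of 1.15 to 2.06.

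In the fixed list of growth factor and hormone receptors, 6 of 11 genes were higher on all 4 plates, against 10.6% of all genes, and none was lower. They were Igf1r (0.48 to 1.22), Fgfr1 (0.50 to 1.62), Erbb4, Bmpr1a, Ghr and Adgrl3. The last is an adhesion G protein-coupled receptor that the list also held. Among 15 tanycyte transcription factors, 3 were higher on all 4 plates, against 10.6% of all genes, and 2 lower, against 10.9%. Tbx3, a T-box factor of the ventral hypothalamus, stood at 332, 221, 357 and 282 CPM in members against 116, 122, 85.3 and 133 CPM. Nkx2-1 and Six3 were the others that were higher, and Nkx2-4 and Id4 were lower. Of 6 genes of thyroid hormone handling outside the rule, none kept 1 direction on all plates, beside the same 10.6 and 10.9% of all genes. Dio2, the deiodinase that activates thyroid hormone, was higher on the fed plates (191, 157 and 195 CPM against 81.2, 72.6 and 67.4 CPM) and not on the fasted plate (282 against 317 CPM).

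Among the 20 lower genes, Foxj1, the master factor of motile cilia, stood at 54.4, 51.0, 59.6 and 18.8 CPM in members and 157, 231, 144 and 97.6 CPM in the other class, and Mns1, a protein of motile cilia, ran 1.30 to 2.20 log2 units lower. Calml4, a calmodulin-like protein of microvilli, stood at 16.3, 12.8, 18.9 and 0 CPM against 116, 112, 85.3 and 38.0 CPM. Ezr, the ezrin that links microvilli to actin, was lower by 0.94 to 3.22. Slc1a2, the main glutamate transporter of astrocytes, stood at 38.1, 102, 122 and 206 CPM in members and 261, 636, 413 and 586 CPM in the other class. Clu, Mt3, Mfge8, Cpe and Slc25a18, all known from astrocytes, were lower on every plate too, as were Vcan, a matrix proteoglycan, and S100a6. Ramp1, a subunit of the CGRP receptor, ran 1.41 to 3.06 lower.

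The other lower genes were P3h2, a prolyl hydroxylase of collagen, Galnt17, Hspa2, Tnks, Polr1c, Letm2 and 3300002A11Rik, whose annotation is antisense. Whether counting used strand is not given in the sources used here, so reads of that last gene and of its partner cannot be told apart. In the cilium and cytoskeleton list 4 of 10 genes were lower on all plates, against 10.9% of all genes, and 1 higher, against 10.6%. Among ependymal markers 2 of 3 were lower on all plates, Foxj1 and Rarres2, against the same 10.9%. The ependymal list summed to 207, 251, 241 and 300.3 CPM in members and 522, 808, 593 and 431 CPM in the other class.

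The same genes varied among the members themselves. Leaving out the wells that stood apart, 19, 16 and 26 fed members had an Scn7a transcript and 5, 12 and 14 had none. The latter were shallower, with median totals of 4292, 4561 and 8087 against 7876, 8638 and 9656 transcripts, and the part of depth in the split was not tested. Dlk1 stood at 3590, 2556 and 2360 CPM in the wells with Scn7a and 938, 712 and 643 CPM in those without. Trpm3 (1769, 2057 and 2421 against 1010, 1028 and 952 CPM), Vegfa (300.2, 313 and 238 against 128, 149 and 64.7 CPM) and Mest (577, 796 and 592 against 128, 289 and 294 CPM) followed the same order on each fed plate. Vcan and P3h2 went the other way, at 43.8 to 58.1 and 23.6 to 24.4 CPM with Scn7a and 202 to 219 and 132 to 214 CPM without it.

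In all, 16 of the 20 higher genes were higher in wells with Scn7a on all 3 fed plates, against 13.4% of the 4903 genes, and 7 of the 20 lower genes were lower, against 17.1%. The 40 genes were chosen on these wells, and Scn7a, which split them, is a gene of the rule. The counts are therefore a description and no support for the split. Crym, also a gene of the rule, was lower in wells with Scn7a (132, 155 and 163 against 202, 465 and 493 CPM). Rax and Vim did not keep 1 order over the plates.

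Spread between single wells was measured on wells thinned to 1000 transcripts, as the ratio of variance to mean over the fed members. The median over 178 genes was 1.22. Dlk1 stood at 3.73 and Trpm3 at 2.96. Scn7a (3.75) and Col25a1 (2.71) chose these wells, so their spread was shaped by the rule and is not read against the median. Fos stood at 3.99 and Nnat, an imprinted gene, at 6.29. The highest values belonged to Ccdc7a (23.9) and Igf2 (21.6). Ccdc7a was used to set some wells apart, so its tie to them was built in. Igf2 was also tied to the wells that stood apart. Igf2 stood at 920.1, 680.1 and 51.4 CPM on the fed plates with those wells and at 17.1 CPM (fed 1), 79.05 CPM (fed 2) and 29.95 CPM (fed 3) without them.

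The share of members differed by plate. They made up 7.30, 10.03 and 12.1% of the kept wells on fed plates 1, 2 and 3, and 2.55% of the fasted wells (exact Clopper-Pearson 95% interval 1.03 to 5.17, counting error only). Of tanycyte wells they made up 51.0, 40.2 and 56.2% fed and 14.9% fasted (6.2 to 28.3). With 1 fasted plate against 3, an exact permutation test over plates cannot pass 0.05, and none is given.

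The size of this difference changed with Slit2, a secreted guidance factor that is 1 of the 3 genes on the other side of the rule. Slit2 (chr5:47983138-48307733, plus strand) stood at 675, 1058 and 1411 CPM in fed members and 2403 CPM in fasted members. In Crym and Frzb high tanycytes it stood at 1886, 1896 and 1981 CPM fed and 3498 CPM fasted, so both classes were highest on the fasted plate. With Slit2 left out of the rule, an alternative chosen after the data were seen, the members numbered 31, 49, 50 and 24. Their shares of kept wells became 8.71, 14.9 and 14.8% fed and 8.73% fasted (5.67 to 12.7). The fasted share was then no lower than that of fed plate 1. Its interval holds counting error only and no spread between plates, so it cannot compare the conditions. Their shares of tanycyte wells became 60.8, 59.8 and 68.5% fed and 51.1% fasted.

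**Figure D3:**
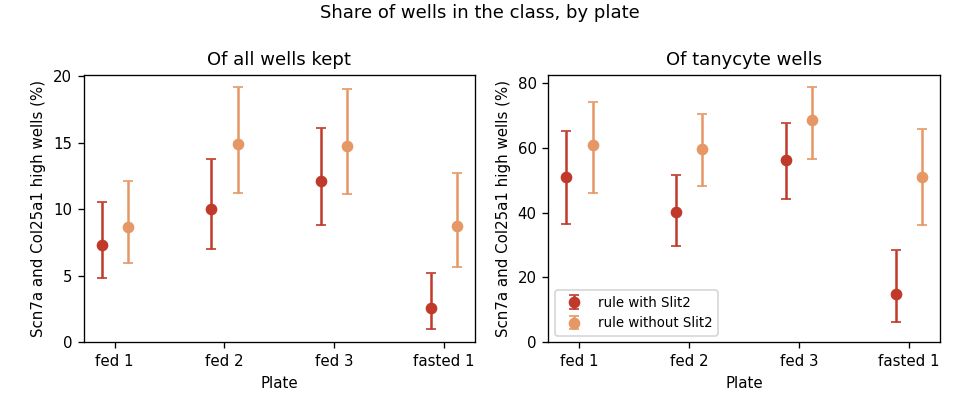
Share of wells in the class by plate, of all kept wells on the left and of tanycyte wells on the right, with exact 95% intervals as bars. With Slit2 in the rule the fasted plate lies at 2.55 and 14.9%, and without it at 8.73 and 51.1%.

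Between the fasted plate and the fed plates, no gene of the members passed the threshold. edgeR's quasi-likelihood test with Benjamini-Hochberg adjustment called 0 of 7528 genes (0%) at an adjusted p under 0.05, with 1044 genes under an unadjusted p of 0.05 (353 higher and 691 lower on the fasted plate), and DESeq2 called 1 higher and 2 lower. The fasted side of the test is the sum of 7 wells, and the median gene had a log2 change of -0.17, the level against which changes are to be read. The smallest adjusted p was 0.057, shared by 8 genes. The count changed with the wells and plates entered: 5 higher and 4 lower without the wells that stood apart, 25 and 26 without fed plate 1, 25 and 33 without fed plate 2, and 24 and 27 without fed plate 3. With Slit2 left out of the rule 103 genes were higher and 79 lower.

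For scale, the Crym and Frzb high tanycytes, with 38 fasted wells, gave 179 calls among 8208 genes (2.18%), 115 higher and 64 lower. In members the fasted plate lay above all 3 fed plates for 32.6% of genes and below all of them for 40.6%, so such an order alone is common here.

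6330403K07Rik, a protein-coding gene on chromosome 11 (71031941 to 71033513, GRCm38), stood at 6245, 6614 and 7299 CPM in fed members and 2177 CPM in fasted members, a log2 change of -1.70 (SE 0.29). In the other class it was also lowest on the fasted plate, at 3808 CPM against 9909 to 14740 CPM. Mapk4, an atypical MAP kinase, stood at 158, 251 and 265 CPM fed and 920 CPM fasted (log2 1.93, SE 0.34), and at 670 CPM fasted against 244 to 327 CPM in the other class. Wbp2 (-3.36), Chmp4b (-3.96), Rgs6 (2.28) and Arid4a (2.42) made up the rest beside Fos and Fosb. Over the 15 alternatives the log2 change ran from -3.70 to -0.67 for Fos and from -6.51 to -0.99 for Fosb. Most of these alternatives reuse the same 7 fasted wells, so they are no separate support.

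The immediate early genes, which encode transcription factors and regulators made soon after stimulation, formed a list of 14, of which 13 passed the filter on low counts and none passed the test after adjustment over all genes. Several, Fosb and Junb among them, had 2 or fewer transcripts on the fasted plate. They passed the filter through the fed plates, where they were high, so no count or median over the 13 is given. Fos stood at 1791, 884 and 967 CPM in fed members and 113 CPM in fasted members (log2 -3.49, SE 0.58, adjusted p 0.057). Fosb stood at 485, 327 and 403 CPM and at 37.5 CPM (log2 -3.48), the last from 2 of 7 fasted members. Junb (261, 323, 317 and 37.5 CPM), Egr1 (844, 421, 468 and 93.9 CPM) and Jun (991, 820, 634 and 263 CPM) showed the same order. The fasted value of Junb came from 1 of 7 members.

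The fed members spread widely in these genes. Fos was found in 16 of 26, 18 of 33 and 25 of 41 fed members, at medians of 4.0, 1.4 and 5.2 and up to 74.2, 54.5 and 34.0 per 10000, and in 3 of 7 fasted members at no more than 2.6. Fed members held more Fos than Crym and Frzb high tanycytes on each fed plate (737, 211 and 400 CPM), and fasted members held less (537 CPM). Among fed members, leaving out the wells that stood apart, Fos stood at 1859, 1214 and 1066 CPM in wells with Scn7a. In those without Scn7a it stood at 18.3, 395 and 733 CPM. On the fasted plate 1 of 7 members had Scn7a, and the part of this in the fasted Fos value was not tested. The 11 heat shock genes, which encode chaperones, summed to 2493, 2308 and 3116 CPM in fed members and 1258 CPM in fasted members. In Crym and Frzb high tanycytes they summed to 2692, 2529 and 2920 CPM fed and 1700 CPM fasted. The 25 nuclear genes of oxidative phosphorylation summed to 5123, 4119, 4635 and 3304 CPM in members. Their sums in the other class were 4955, 4656, 4757 and 3602 CPM. None of these genes passed the test in members. Genes could pass the filter on low counts through the fed plates alone, so no count or median over either list is given.

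**Figure D4:**
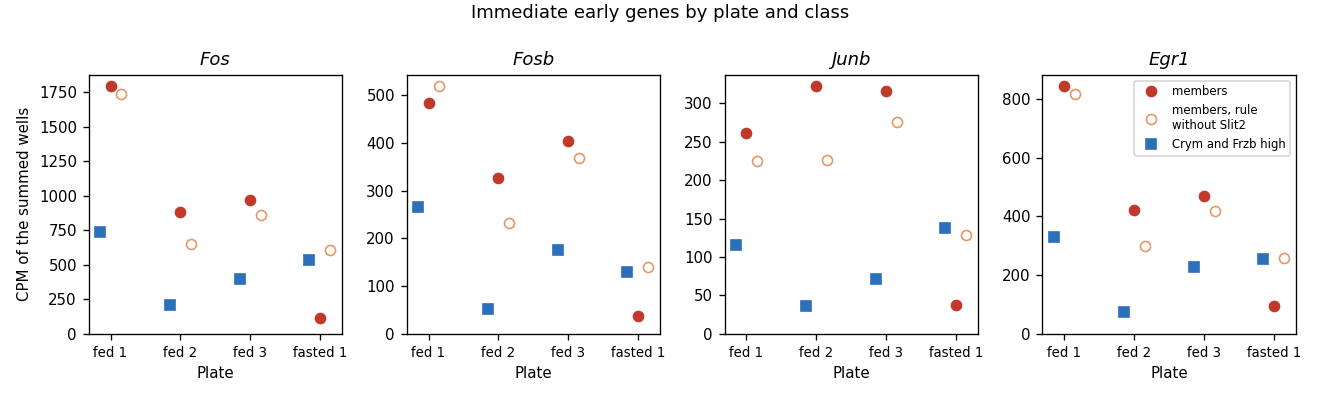
CPM of Fos, Fosb, Junb and Egr1 in the summed wells of each plate. Filled circles are members, open circles members by the rule without Slit2, and squares Crym and Frzb high tanycytes. The filled circle of the fasted plate is the lowest point of each panel but for Egr1, where the fed plate 2 square at 75.8 CPM lies below 93.9 CPM, and but for Junb, where the fed plate 2 square lies at 36.3 against 37.5 CPM.

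The size of this difference changed with membership. By the rule without Slit2, with 24 fasted wells, Fos stood at 1733, 649, 859 and 608 CPM, Fosb at 519, 233, 369 and 140 CPM, and Egr1 at 817, 300, 417 and 259 CPM on fed plates 1, 2 and 3 and the fasted plate. The fasted value was still the lowest for each, and for Fos it lay close to fed plate 2. Without the wells that stood apart, Fos stood at 1567, 978, 972 and 118.5 CPM. The pars tuberalis list (Chga at 169, 34.0 and 83.9 CPM fed and 1464 CPM fasted), the mitochondrial share and the sex of the cells moved with feeding beside these genes, and their part in the result was not tested apart from the wells with Xist alone. In those, with fed plate 1 left out, the log2 change was -2.96 for Fos (adjusted p 0.81) and -3.20 for Fosb (adjusted p 0.31), beside -3.49 and -3.48 over all members. Of 1757 genes tested there, 1 was called higher and 0 lower.

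The promoters of these genes are shown because factors of the cAMP pathway are known to act on several of them. The motif searched was TGACGT, the core of the cAMP response element, on both strands (ACGTCA on the other), in the 250 bases before each RefSeq start (GRCm38.p6). The strand forms overlap in TGACGTCA, which was counted once. It was found for 5 of 12 immediate early genes looked up, and in 6.47% of all 32851 promoter windows (7.29% of 27025 genes). The list held 14 such genes, and those not looked up stayed out of this count, while the background took all windows. The count and the background are therefore given side by side without a comparison. No result is given here for Egr1. Among the genes with the motif, only Fos, Dusp1, Btg2 and Atf3 are shown. The stretches around it, on the strand of the gene and with the match in capitals, ended 21 bases before the start for Fos (chr12:85473784-85473869), 146 for Dusp1 (chr17:26508618-26508703, minus strand), 121 for Btg2 (chr1:134079276-134079361, minus strand) and 1 for Atf3 (chr1:191183334-191183381, minus strand).
Fos: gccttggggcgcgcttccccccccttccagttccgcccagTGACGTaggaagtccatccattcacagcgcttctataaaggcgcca
Dusp1: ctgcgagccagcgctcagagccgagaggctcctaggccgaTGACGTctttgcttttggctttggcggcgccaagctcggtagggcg
Btg2: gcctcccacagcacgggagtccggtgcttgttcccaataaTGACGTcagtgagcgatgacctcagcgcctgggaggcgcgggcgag
Atf3: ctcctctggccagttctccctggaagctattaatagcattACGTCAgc
A match is a description of letters, not a bound site, and the genes without one in this window included Fosb, Jun and Junb, which were also low on the fasted plate.

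The test of whether the change on the fasted plate differed between the classes called 7 of 8718 genes (0.0803%), 1 higher and 6 lower in members (edgeR's quasi-likelihood test with plate as block). The log2 difference of Fos was -3.85 (SE 0.49, adjusted p 1.77e-05), from a change of -3.49 in members and 0.31 in Crym and Frzb high tanycytes. With Slit2 left out of the rule it was 0.64 with an adjusted p of 0.80, so its sign turned with membership. Over the other 13 alternatives the Fos difference stayed negative, and 1 of them, thinned wells, no longer passed (adjusted p 0.11).

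Pcdh9, a protocadherin, stood at 1889, 2117 and 1979 CPM in fed members and 1821 CPM in fasted members, and at 789, 1068, 1056 and 2227 CPM in the other class (log2 difference -1.42, SE 0.28). The members were level over the plates, while the other class was highest on the fasted plate and reached the level of the members there. Slc8a1, a sodium-calcium exchanger, stood at 403, 591, 246 and 300.3 CPM in members and 87.0, 72.6, 53.9 and 250 CPM in the other class (-2.37, SE 0.49). Ak7, an adenylate kinase of motile cilia, went the other way, at 43.6, 46.8, 51.4 and 263 CPM in members and 151, 178, 175 and 111 CPM in the other class (2.96, SE 0.62).

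The remaining called genes, Ranbp3l, Slc6a13 and Itih5, depended on the wells that stood apart. Ranbp3l stood at 103, 132, 13.5 and 0 CPM in members and, in the other class, at 0 on every fed plate and 106 CPM on the fasted one. Without the wells that stood apart it held at most 8.17 CPM on any plate in either class, Slc6a13 at most 19.8 CPM, and Ranbp3l, Slc6a13 and Itih5 fell under the filter on low counts. Fos, Pcdh9, Slc8a1 and Ak7 passed without those wells too, among 19 calls (7 higher, 12 lower) of 8058 genes. Other alternatives lost these calls: 3 of 14 for Pcdh9, 6 of 14 for Slc8a1 and 5 of 13 for Ak7, with adjusted p values of up to 1. In fasted members Ak7 was 126 CPM with Slit2 left out of the rule, against 161 CPM in the other class, and 57.3 against 92.0 CPM where the larger sum had to be at least 2 times the smaller.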

How the data were processed

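CEL-seq2 libraries of single sorted cells were read from 4 plates. The authors deposited expected counts, UMIs of 6 bases per gene and well corrected for collisions; per the submitters' processing notes, reads were handled with Trim Galore and STAR on mm10. No source used here names the UMI counter or annotation. ERCC and mitochondrial rows stayed out of totals. Members and gene lists were chosen with earlier results of these data known. Estimated counts were summed per plate and class, rounded and tested with edgeR 4.0.16 (filterByExpr, TMM, quasi-likelihood, 2 residual degrees of freedom), with DESeq2 1.42.0 as an alternative, and adjusted over all genes tested. The script was checked on simulated data. CPM in the text are of plain totals; log2 changes come from the TMM-scaled fit. Ratios between classes used 0.5 added counts. Counts are from the 3′ end, so levels compare between samples, not between genes. No doublet caller was used, and the labels describe each well as a single-cell library. Genes were named by rule: 20 highest and 20 lowest against the other class, genes of fixed lists, and all genes called. Coordinates are GENCODE vM21 (GRCm38). The alternatives tried are given in the closing section.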

Additional observations from a re-analysis of the deposited data

Results flagged for a closer look

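The change on the fasted plate differed between members and Crym and Frzb high tanycytes for 7 genes, by edgeR's test of the difference itself. The adjusted p was 1.77e-05 for Fos, 5.57e-05 for Ranbp3l, 0.0273 for Pcdh9, 0.0273 for Slc6a13, 0.0324 for Slc8a1, 0.0324 for Ak7 and 0.0496 for Itih5. Over the alternatives in which each gene was tested, the adjusted p ran from 1.55e-14 to 0.80 for Fos, from 1.45e-05 to 1 for Pcdh9, from 0.00043 to 1 for Slc8a1 and from 0.0024 to 1 for Ak7. For Itih5 the call was lost in 8 of 12 alternatives.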

How the results depend on the processing

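The count of genes higher on the fasted plate in members was 0 as reported. It was 1 with DESeq2, 4 with RLE size factors, 8 without a filter, 4 from wells with at least 2000 counts, 7 at a tanycyte sum of at least 20, 1 from thinned wells, 1 from wells with Xist alone, 5 without the wells that stood apart, 103 with Slit2 out of the rule and 103 with both classes summed. Leaving out a fed plate gave 24 to 25. The count of lower genes, also 0, was 2, 5, 17, 5, 5, 3, 0, 4, 79 and 64 in the same order, and 26 to 33 with a fed plate left out. Both stayed 0 at a mitochondrial share under 30% and at a ratio of sums of at least 2. The 7 genes whose change differed between classes became 2 with DESeq2, 3 at a tanycyte sum of at least 20, 11 at a ratio of at least 2, 25 without a filter, 25 with Slit2 out of the rule, 19 without the wells that stood apart and 22 to 51 with a fed plate left out. The cause was not tested, except that memberships change the wells summed. The share of members moved to 4.26% (fed plate 2) and 8.28% (fed plate 3) at a ratio of at least 2, and to 14.9% (fed plate 2) and 8.73% (fasted plate) with Slit2 out of the rule. The log2 difference of Fos turned to 0.64 with Slit2 out of the rule, and with both classes summed Ier2 turned to 0.081 and Klf4 to 0.16. No paired analysis was possible because the labels name no unit shared by fed and fasted plates. The 7 fasted wells with 53298 transcripts limit every value of the fasted members. Alternatives on Slit2, on both classes summed and on wells that stood apart were chosen after seeing the data.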
